A study of Arabidopsis thaliana with 13 samples.

Results

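AUR1 (At4g32830) and AUR2 (At2g25880) are the alpha-type Aurora kinases of Arabidopsis, and their transcripts were followed here as marks of mitotic activity in dissected root tips. The members were the probe sets assigned to exactly 1 gene with the symbol AUR1 or AUR2. Each gene had 1 such probe set, so that there were 2 members among the 22746 probe sets tested. The profiles came from 13 Affymetrix ATH1 arrays of root tips, each of 1 biological replicate, and the values are log2 values per probe set after robust multi-array averaging (RMA), which makes signals of 1 probe set comparable between arrays but not those of different probe sets. Col-0, the wild type, was profiled at 4 das (2 arrays), 6 das (1 array) and 10 das (3 arrays). The rRBr line, in the Col-0 background, carries an RNA interference construct against RETINOBLASTOMA RELATED (RBR) that the RCH1 promoter drives in the root meristem, and it had 2, 2 and 3 arrays on these days. Both lines were germinated together and grown on the same medium without any further treatment, and das is given as days after stratification in the sample labels and as days after sowing in the study. Cells outside the reach of the RCH1 promoter are also part of a dissected tip.

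Aurora kinases are serine/threonine kinases that act during mitosis. In plants the alpha-type kinases are found on the spindle and the forming cell plate and are needed to orient formative divisions, whereas the beta-type kinase AUR3 is found at centromeres. Their transcripts accumulate in dividing cells around the G2 to M transition. RBR holds back E2F transcription factors and with them the entry into S phase, and the comparison asks whether transcripts of the mitotic kinases differed where RBR was silenced. In RNA of whole tips, fewer cells of a type and less RNA per cell cannot be told apart.

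The table of probe sets used here names no probe set for RBR alone, and its silencing was not analysed here. The array medians lay between 5.97 and 6.07. The tissue could be checked with few markers. Of 7 markers of the stem cell niche and meristem, 2 were named in that table as the only gene of a probe set. At5g48940 (RCH1), the gene whose promoter drives the construct of rRBr, lay above the array median on 13 of 13 arrays. ACR4 (CR4), a receptor kinase of the root apex, lay above it on 0. Both were lowest of the 13 arrays on Col-0 at 10 das replicate 1, at 8.79 and 4.74. Markers of the root cap and xylem were not named in the table as the only gene of a probe set and are not analysed here. RCA, which encodes Rubisco activase of green tissue, lay above the median on 0 arrays, at 4.39 to 5.53. EXPA7 and EXPA18, the expansins of root hair cells, separated the arrays. The mean of both lay at 8.80 to 8.89 on 3 arrays and at 4.69 to 7.41 on the other 10. The 3 were Col-0 at 10 das replicate 1, rRBr at 6 das replicate 1 and rRBr at 10 das replicate 1. On them At5g48940 averaged 8.95 and ACR4 4.87, against 9.27 and 5.15 on the other 10. These 3 arrays are followed below. Line differences of single genes with arrays left out are given for AUR1 and AUR2, and not for the other genes.

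AUR1 gave a clear signal on every array and differed little between the lines. The probe set lay above the upper quartile of its array on 13 of 13 arrays. In Col-0 the log2 RMA values of AUR1 were 8.77 and 8.60 (4 das), 8.62 (6 das), and 8.19, 8.70 and 8.78 (10 das). In rRBr they were 8.91 and 8.94 (4 das), 8.63 and 8.69 (6 das), and 8.65, 8.51 and 9.06 (10 das). The lowest of the 13 values was that of Col-0 at 10 das replicate 1, and the highest that of rRBr at 10 das replicate 3. The lines overlapped, since 4 of the 7 rRBr values lay within the range of the Col-0 values.

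AUR2 followed the same course on its own scale. It lay above the upper quartile on 10 of 13 arrays. In Col-0 the log2 RMA values of AUR2 were 8.30 and 8.15 (4 das), 8.13 (6 das), and 7.45, 8.13 and 8.19 (10 das). In rRBr they were 8.38 and 8.36 (4 das), 8.15 and 7.97 (6 das), and 7.94, 8.13 and 8.57 (10 das). Again the lowest value belonged to Col-0 at 10 das replicate 1 and the highest to rRBr at 10 das replicate 3, and the lines overlapped.

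**Figure D1:**
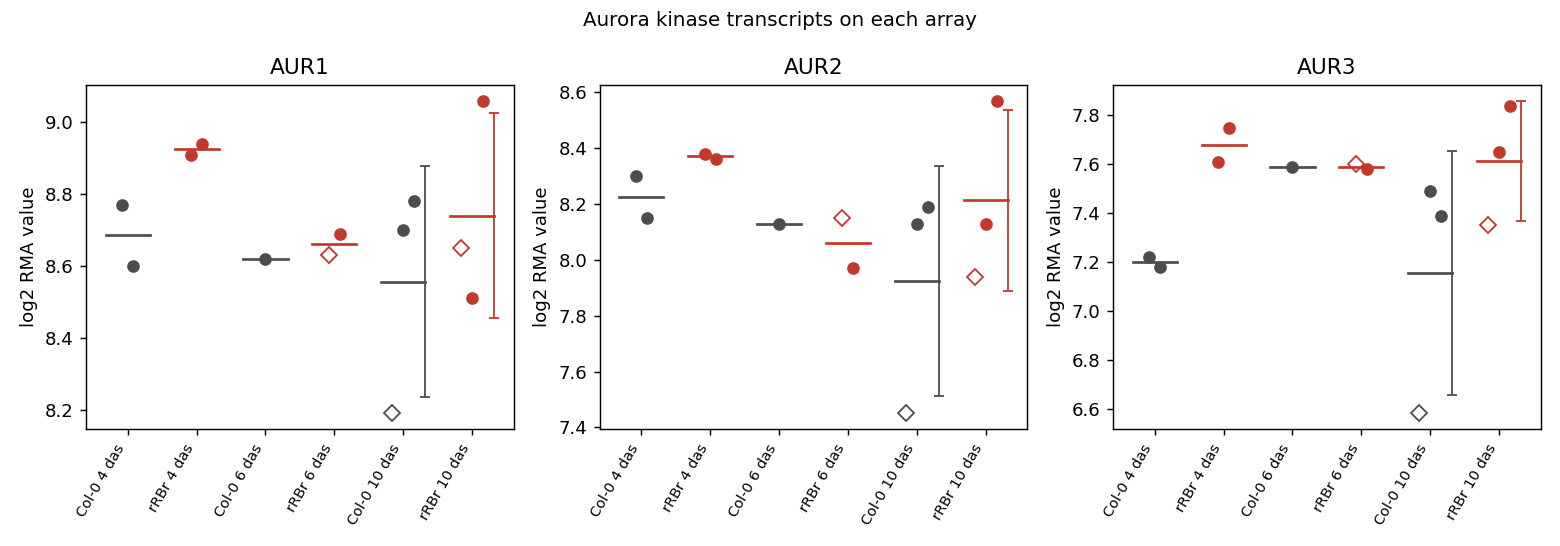
Log2 RMA values (y axis, a scale of its own for each gene) of AUR1, AUR2 and AUR3 on each array, by line and day (x axis). Points are arrays, open diamonds are the 3 arrays with high root hair transcripts, horizontal lines are group means and bars are ± SD at 10 das (n = 3). In each panel the lowest value is that of Col-0 at 10 das replicate 1, with 8.19 for AUR1, 7.45 for AUR2 and 6.58 for AUR3.

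Over all days AUR1 averaged 8.61 ± 0.22 in Col-0 (SD, n = 6) and 8.77 ± 0.20 in rRBr (SD, n = 7). The difference, rRBr minus Col-0, was 0.16 on the log2 scale (SE 0.11, 95% confidence interval -0.08 to 0.40), a fold change of 1.12 with an interval of 0.948 to 1.32, and it did not pass the test (limma, adjusted p = 0.703). Calls required both a fold change of at least 1.4 and an adjusted p under 0.01, and in this comparison 78 probe sets, 0.343% of all tested, were called higher and 17, 0.0747%, lower. Neither member was called.

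AUR2 averaged 8.06 ± 0.30 in Col-0 (SD, n = 6) and 8.21 ± 0.23 in rRBr (SD, n = 7), a difference of 0.16 (SE 0.14, interval -0.14 to 0.45), or a fold change of 1.11 with an interval of 0.906 to 1.37 (limma, adjusted p = 0.788). Both intervals ended below the fold change of 1.4 at which calls were made, so that a larger rise over all days lay outside them. The upper end for AUR2 passed this fold under 10 of 26 alternative settings and that for AUR1 under 1, and both were highest without the 6 das arrays, at 0.61 and 0.51 on the log2 scale. Among all probe sets, 10.6% had a larger difference than AUR1 and 10.9% a larger one than AUR2, beside a median difference of -0.01.

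The difference rested in part on 1 Col-0 array. Without Col-0 at 10 das replicate 1 it was 0.08 for AUR1 and 0.03 for AUR2, and without the 3 arrays with high root hair transcripts it was 0.13 and 0.10. Arrays of the same day and replicate number were also set against each other. AUR1 was higher in rRBr in 5 of 6 such pairs, with differences of 0.14 and 0.34 in the pairs of 4 das, 0.01 in that of 6 das and 0.46, -0.19 and 0.28 in those of 10 das. AUR2 was higher in 5 of 6 and equal in 1, with 0.08 and 0.21 for 4 das, 0.02 for 6 das and 0.49, 0.00 and 0.38 for 10 das. The largest of these differences was, for each gene, that against Col-0 at 10 das replicate 1.

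Within days, no difference of either kinase passed the test. At 4 das, where 1 probe set (0.0044%) was called, AUR1 was 0.24 higher in rRBr (SE 0.21, interval -0.24 to 0.72) and AUR2 0.145 higher (interval -0.43 to 0.72), both with an adjusted p of 1 (limma). Without Col-0 replicate 1 of this day they were 0.325 and 0.22, and without replicate 2 they were 0.155 and 0.07. For AUR1 both rRBr arrays of this day lay above both Col-0 arrays, as they did for AUR2. At 6 das, where again 1 probe set (0.0044%) was called, the differences were 0.04 (interval -0.55 to 0.63) and -0.07 (interval -0.78 to 0.64). The single Col-0 array of that day was assumed to vary like the other groups, and the interval was the widest of the 3 days.

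At 10 das 65 probe sets (0.286%) were called, the Aurora kinases not among them. The difference was 0.18 for AUR1 (SE 0.17, interval -0.21 to 0.58, limma adjusted p = 0.965) and 0.29 for AUR2 (SE 0.21, interval -0.18 to 0.76, adjusted p = 0.904). Without Col-0 at 10 das replicate 1 these were 0.00 and 0.05. Without rRBr at 10 das replicate 3, the highest array, they were 0.02 and 0.11. The highest values with 1 array left out were 0.30 for AUR1, without rRBr at 10 das replicate 2, and 0.43 for AUR2, without rRBr at 10 das replicate 1. The spread between replicates of a line at 10 das was wider than the differences of 0.18 and 0.29, with an SD of 0.32 in Col-0 and 0.29 in rRBr for AUR1 and of 0.41 and 0.32 for AUR2 (n = 3 each). This SD also holds what arrays of the same replicate number share. Within such pairs the differences at 10 das were 0.46, -0.19 and 0.28 for AUR1 and 0.49, 0.00 and 0.38 for AUR2. For the change of the line difference between 10 and 4 das, where 1 probe set (0.0044%) was called at an adjusted p under 0.05, AUR1 gave -0.06 (interval -0.68 to 0.56) and AUR2 0.145 (interval -0.60 to 0.89), both with an adjusted p of 1 (limma).

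**Figure D2:**
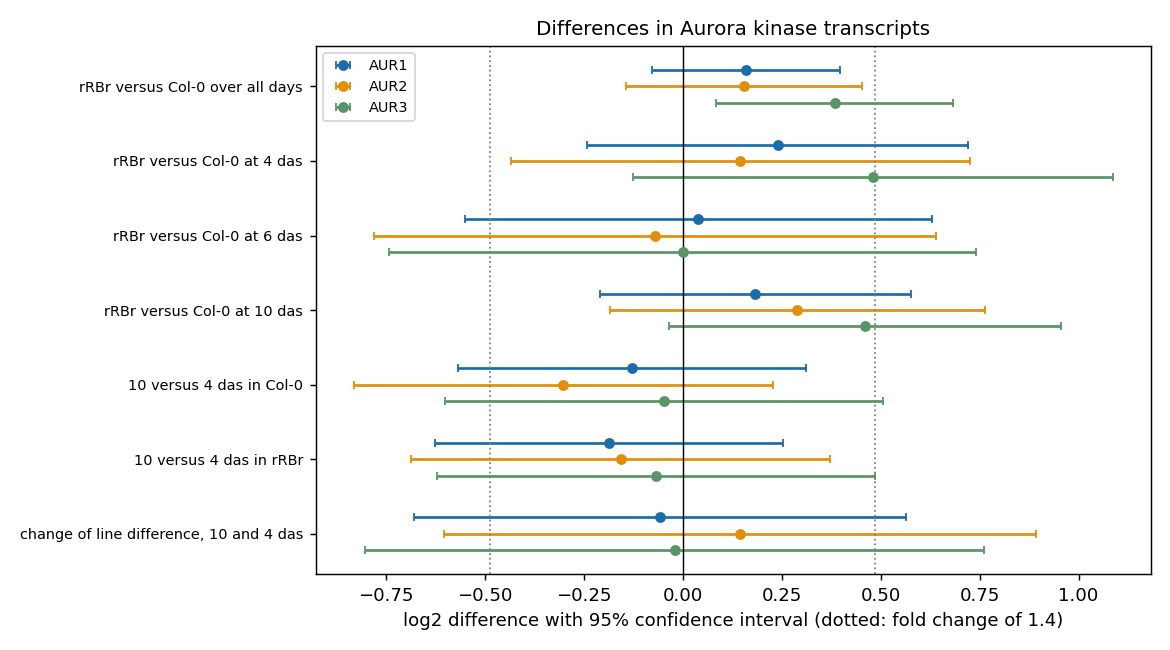
Log2 differences (x axis) of AUR1, AUR2 and AUR3 in each comparison (y axis), with 95% confidence intervals from limma as bars and dotted lines at a fold change of 1.4 in either direction. The intervals of AUR1 and AUR2 include 0 in every comparison, and over all days they run from -0.08 to 0.40 and from -0.14 to 0.45.

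The age of the seedlings was compared within each line. From 4 to 10 das AUR1 changed by -0.13 in Col-0 (interval -0.57 to 0.31) and by -0.185 in rRBr (interval -0.62 to 0.25). AUR2 changed by -0.30 in Col-0 (interval -0.83 to 0.23) and by -0.16 in rRBr (interval -0.69 to 0.37). None of these passed the test. In Col-0 7 probe sets (0.0308%) were called with age, and in rRBr limma called 0 (0%), with 1197 at an unadjusted p under 0.05 and 27 called once arrays were weighted by their quality. The value in Col-0 turned to 0.055 for AUR1 and moved to -0.065 for AUR2 without Col-0 at 10 das replicate 1. In rRBr the values ran from -0.345, without replicate 3 of 10 das, to -0.07, without replicate 2, for AUR1. For AUR2 they ran from -0.335, again without replicate 3, to -0.02, without replicate 1.

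In the order of the group means AUR1 was highest in rRBr at 4 das (8.92), followed by rRBr at 10 das (8.74), Col-0 at 4 das (8.69), rRBr at 6 das (8.66), Col-0 at 6 das (8.62) and Col-0 at 10 das (8.56). The means spanned 0.37, and no neighbours in this order were further apart than the pooled SD within groups of 0.23. For AUR2 the order was rRBr at 4 das (8.37), Col-0 at 4 das (8.22), rRBr at 10 das (8.21), Col-0 at 6 das (8.13), rRBr at 6 das (8.06) and Col-0 at 10 das (7.92), again with no gap beyond the pooled SD of 0.29. Neighbours in the order were thus not resolved for either gene. The ends of the order, rRBr at 4 das and Col-0 at 10 das, were not tested against each other. Without Col-0 at 10 das replicate 1 the mean of Col-0 at 10 das was 8.74 for AUR1 and 8.16 for AUR2, no longer the lowest.

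AUR1 and AUR2 varied together from array to array. Over the 13 arrays Pearson's r was 0.915 (permutation p = 8.0e-05, adjusted over 3 relations 2.4e-04) and Spearman's rho was 0.775 (permutation p = 0.0029, adjusted 0.0087). Without the 2 arrays farthest from the median of AUR1, Col-0 at 10 das replicate 1 and rRBr at 10 das replicate 3, r was 0.700 (permutation p = 0.0174). Within lines r was 0.968 in Col-0 (n = 6, exact permutation p = 0.0389) and 0.843 in rRBr (n = 7, exact permutation p = 0.0298). Without the 2 farthest arrays of each line r was 0.786 over 4 arrays and 0.589 over 5 (exact permutation p = 0.5 and 0.333), numbers that leave little room for a test. Over the 10 arrays without high root hair transcripts r was 0.849 (permutation p = 0.0024). For deviations from group means over the 13 arrays r was 0.910. The permutations for r treated arrays as exchangeable, although they form 6 groups of line and day and were taken as paired by replicate number. The log2 ratio of AUR1 to AUR2 on each array changed by 0.004 between the lines (exact two-sided permutation test over 1716 regroupings, p = 0.963), against an SD of 0.11 in Col-0 and 0.12 in rRBr. Whether part of the likeness comes from probes of one gene binding transcripts of the other was not tested.

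The root hair transcripts were set beside both genes. On the 3 arrays with high root hair transcripts AUR1 lay at 8.19, 8.63 and 8.65 and AUR2 at 7.45, 8.15 and 7.94, in the order Col-0 at 10 das, rRBr at 6 das and rRBr at 10 das. The other 10 arrays lay at 8.51 to 9.06 for AUR1 and at 7.97 to 8.57 for AUR2. The arrays fall into separate clusters by root hair level, and a relation was computed within the 10 others only. There r was 0.121 for AUR1 (permutation p = 0.727, adjusted 0.727, rho 0.030, permutation p = 0.947) and 0.261 for AUR2 (permutation p = 0.461, adjusted 0.692, rho 0.325, permutation p = 0.364), and without the 2 farthest arrays 0.103 and 0.144. The part of the root hair tissue in the low Aurora values was not tested.

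**Figure D3:**
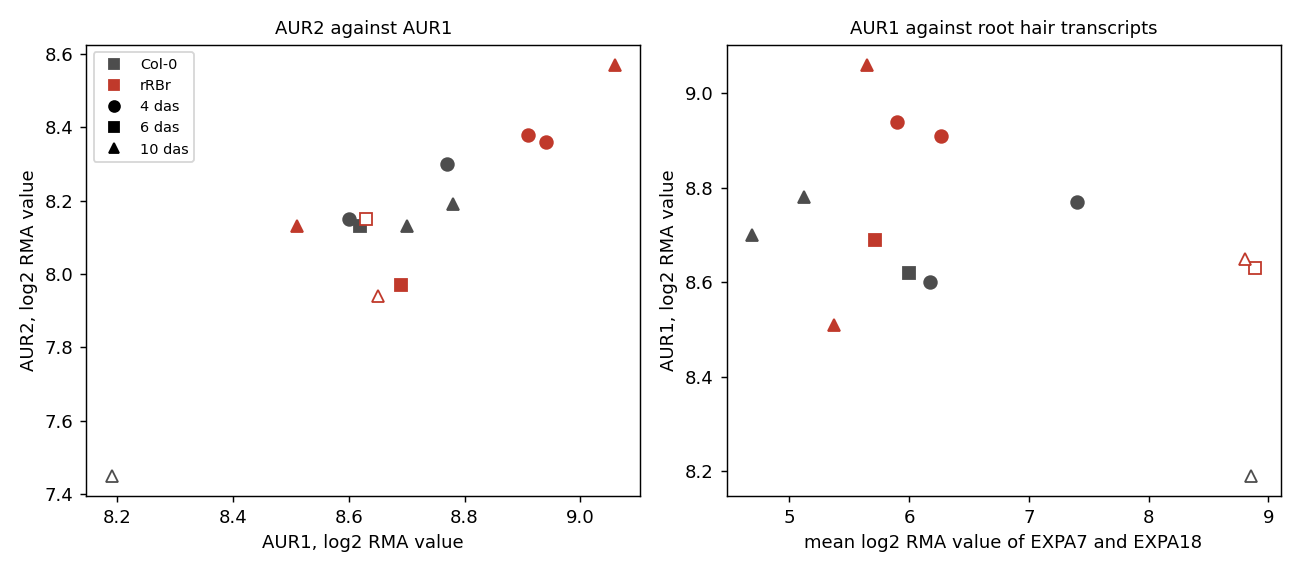
AUR2 against AUR1 (left) and AUR1 against the mean of EXPA7 and EXPA18 (right), log2 RMA values on both axes, 1 point per array with the line by colour and the day by shape. Open symbols are the 3 arrays with high root hair transcripts. AUR1 and AUR2 lie along a common line (r = 0.915), whose lower end is Col-0 at 10 das replicate 1, and the arrays at the right of the second panel (8.80 to 8.89) include that array.

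The genes most like each member were taken as the 5 probe sets of 1 gene with the highest Pearson's r among the other 13512, over the same 13 arrays, which share their tissue samples and normalization. For AUR1 these were At3g52110 (r = 0.943), At5g60150 (0.936), AUR2 (0.915), At1g61450 (0.912) and 3xHMG-box2 (0.906), an HMG-box protein that associates with mitotic chromosomes. BUB3.1, a protein of the spindle checkpoint, came next at 0.897. For AUR2 they were At3g51720 (0.928), AUR1 (0.915), At5g60150 (0.905), At5g06590 (0.894) and 3xHMG-box2 (0.871). Lowest were At3g61180 (-0.869) and At5g26990 (-0.864) for AUR1, and At3g18295 (-0.874) and At1g48670 (-0.860) for AUR2. At1g48670 gave a low signal, at 4.18 to 4.59, with the highest value on Col-0 at 10 das replicate 1. Without the 3 arrays with high root hair transcripts its r with AUR2 was -0.546. The names changed with the measure. Of the 5 for AUR1, 0 remained when deviations from group means were used and 2 without the 3 arrays with high root hair transcripts, and of the 5 for AUR2 1 and 0.

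AUR3, the beta-type kinase, had a larger point value of the difference between the lines than the alpha-type pair. The log2 RMA values of AUR3 were 7.22 and 7.18 (4 das), 7.59 (6 das) and 6.58, 7.49 and 7.39 (10 das) in Col-0. In rRBr they were 7.61 and 7.75, 7.60 and 7.58, and 7.35, 7.65 and 7.84. The lines overlapped at 7.35 to 7.59, and AUR3 was higher in rRBr in 6 of 6 pairs of the same day and number. Over all days the difference was 0.38 (SE 0.14, interval 0.09 to 0.68), a fold change of 1.31 (interval 1.06 to 1.61), which did not pass the test (limma, adjusted p = 0.304). By day it was 0.48 (4 das), 0.00 (6 das) and 0.46 (10 das). Col-0 at 10 das replicate 1 was the lowest array, at 6.58. Without it the Col-0 mean of AUR3 at 10 das was 7.44, against 7.61 in rRBr.

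Whether AUR3 changed by another amount than the alpha-type genes was tested on the ratio within each array, a comparison added after the values were seen. The log2 ratio of AUR3 to AUR1 was 0.22 higher in rRBr (exact two-sided permutation p = 0.0577, adjusted over 3 pairs of genes 0.0865), and that of AUR3 to AUR2 was 0.23 higher (exact permutation p = 0.0355, adjusted 0.0865). When arrays were permuted only within days, the adjusted exact permutation p was 0.0458 and 0.0333. An exact sign-change test within the 6 pairs of the same day and number gave mean differences of 0.22 and 0.20 (exact p = 0.0625 for both, adjusted 0.0938, the smallest possible unadjusted p being 0.0312). AUR3 exceeded AUR1 in its change in 5 of 6 pairs and equalled it in 1, and exceeded AUR2 in 5 of 6. The unequal change was therefore past an adjusted p of 0.05 only with the day held fixed and the pairs not used. Such a ratio shows unequal change and does not say which of the genes moved.

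Of the partners of Aurora kinases, WYRD (WYR), the plant counterpart of the inner centromere protein of the chromosomal passenger complex, was named as the only gene of a probe set, as was At4g39630, also from this list. WYR ranged from 5.45 to 6.49, with a median of 6.29, in Col-0 and from 6.36 to 6.74, with a median of 6.59, in rRBr. The difference was 0.39 (SE 0.14, interval 0.09 to 0.70, limma adjusted p = 0.305). At4g39630 ranged from 5.79 to 6.85 in Col-0 and from 6.74 to 7.25 in rRBr, and its difference was 0.51 (SE 0.16, interval 0.17 to 0.84, adjusted p = 0.188). The lines overlapped for both genes, and neither was called. Both were lowest on Col-0 at 10 das replicate 1, at 5.45 and 5.79. The other Col-0 arrays lay at 6.18 to 6.49 and at 6.60 to 6.85, and both differences include the low array. Over the 13 arrays r with AUR1 was 0.685 for WYR and 0.735 for At4g39630, and without the 3 arrays with high root hair transcripts it was 0.332 and 0.362.

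The other mitotic genes came from lists written out by gene identifier. Together with the Aurora kinases they hold 63 genes, of which 14 were named as the only gene of a probe set. Of the 18 mitotic cyclins and B-type cyclin-dependent kinases and the 4 regulators of the G2 to M transition in these lists, 0 were among the 14, so that these core regulators are not analysed here. None of the 14 was called in any of the 7 comparisons. The share called of all probe sets was largest over all days, with 0.343% higher and 0.0747% lower. At such shares the absence of calls among 14 genes says little about mitotic genes. Over all days 13 were higher and 1 lower in rRBr, with a median of 0.18, beside 10413 higher and 12307 lower of all probe sets and a median of -0.01. At 4 das 12 of 14 were higher (median 0.27), at 6 das 7 (median 0.02) and at 10 das 13 (median 0.23). The values of the 14 genes come from the same arrays, and the low Col-0 array was part of each comparison over all days and at 10 das.

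The values are given by role, without a test between roles. For the spindle checkpoint, BUB3.1, BUB3.2 and BUBR1 differed by 0.05 to 0.19 over all days, with BUB3.1 highest (limma adjusted p = 0.596). For the phragmoplast and cytokinesis, KEULE (KEU), which acts in vesicle fusion at the cell plate, the phragmoplast kinesin KINESIN-12B and At2g28620 differed by -0.08 to 0.08, the median being 0.03. For chromosome structure and the kinetochore, the differences of ATSMC2, a condensin subunit, HTR12, the centromeric histone H3, and At3g54630 were 0.28 to 0.52. ATSMC2 ranged from 5.22 to 5.89 in Col-0 and from 6.07 to 6.35 in rRBr without overlap. Its difference of 0.52 (SE 0.10, interval 0.30 to 0.74) had a limma adjusted p of 0.0237 and was not called at 0.01. For HTR12 the difference was 0.39 (adjusted p = 0.0963).

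**Figure D4:**
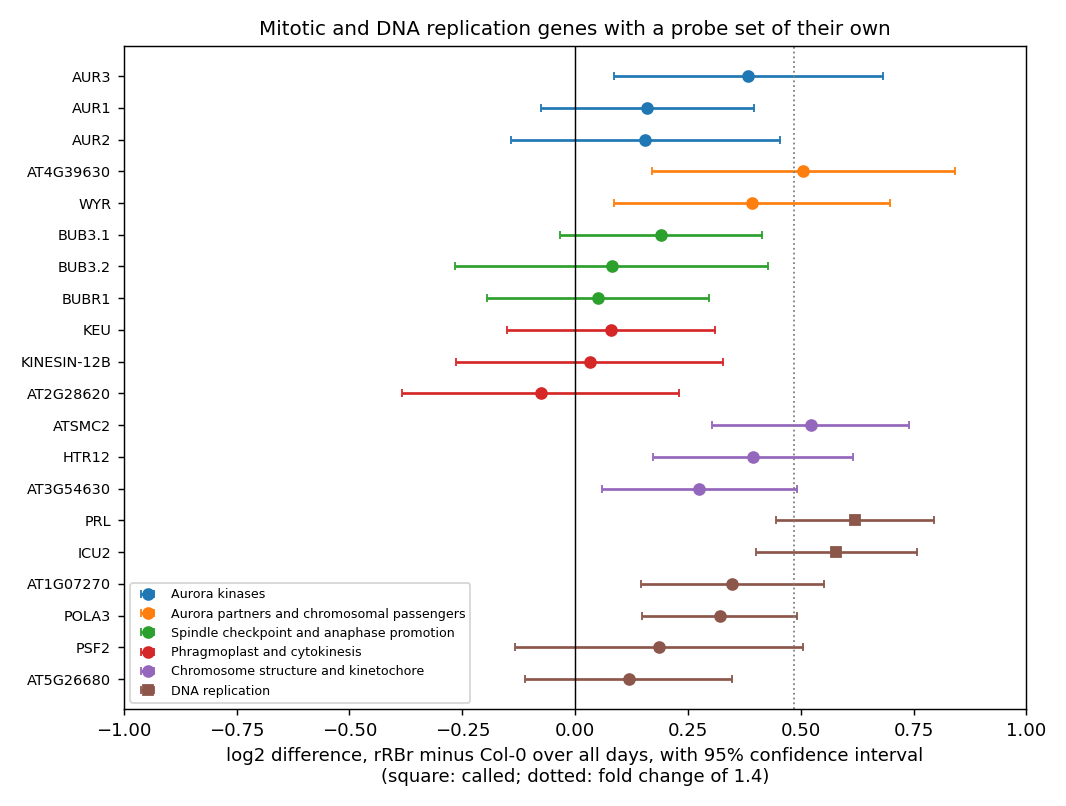
Log2 differences between rRBr and Col-0 over all days (x axis) of the mitotic and DNA replication genes that could be measured (y axis), coloured by list. Bars are 95% confidence intervals from limma, squares are called genes and the dotted line is a fold change of 1.4. AUR1 and AUR2 lie at 0.16, and the called genes PRL and ICU2 at 0.62 and 0.58.

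Genes of DNA replication were measured on the same arrays. Of 16 listed, 6 were named as the only gene of a probe set and 2 were called higher over all days. PRL, the MCM7 protein of the helicase at replication forks, was 0.62 higher in rRBr (interval 0.45 to 0.80, limma adjusted p = 0.00169), and ICU2, the catalytic subunit of DNA polymerase alpha, was 0.58 higher (interval 0.40 to 0.76, adjusted p = 0.00336). Whether these genes changed by another amount than the Aurora kinases was not tested. The root hair genes EXPA7 and EXPA18 differed by 0.22 and 0.35 between the lines and were not called.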

How the data were processed

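The deposited values are log2 RMA values, which the authors made with the affy package of Bioconductor from 13 ATH1 arrays (background correction, quantile normalization, summary per probe set), 1 column per array. Versions are not given in the sources used here. The arrays give no counts, and their number limits the precision. Of 22810 probe sets, 64 controls were left out. A probe table gave 1 gene for 13513, of which 13436 matched RefSeq genes of TAIR10.1, several for 503 and no name for 8730. No coordinates or sequences are printed.

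In R 4.3.3 limma 3.58.1 (lmFit, eBayes) was fitted over all 22746 probe sets with Benjamini-Hochberg adjustment, for 2 groups over all days and for 6 groups of line and day that share 1 spread. Permutation tests were two-sided. Those of ratios between genes were exact, by listing all regroupings or sign changes. Those of correlations used SciPy 1.17.1 and were exact for under 10 values, otherwise with 1e+05 resamples. Scripts were tested on simulated data.

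Named were AUR1, AUR2, AUR3 and the partners, the called or most changed gene of each mitotic list, called replication genes, root hair markers, and the 5 most and 2 least alike genes. BUB3.2, BUBR1, KEU, KINESIN-12B, HTR12, At3g54630, ACR4, RCA and At5g48940 were named outside this rule. Members, lists and rule were chosen with earlier results of these data known.

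Replicate numbers were checked for pairing. After group means were removed, arrays of both lines with the same number correlated at 0.18 and 0.18 at 4 das, which is 1 value. At 10 das they correlated at 0.79, 0.60 and 0.63, where arrays with other numbers reached 0.41 and 0.56. The numbers were taken as pairing the samples. At 10 das replicate 1 of both lines had high root hair transcripts (8.86 and 8.80), so the check cannot tell pairing from this shared tissue difference. At 6 das replicate 1 differed, at 8.89 in rRBr and 6.00 in Col-0. The counts and tests within pairs rest on these numbers. Alternatives were the replicate block, day as a factor, array weights, other variance models, scaling, filters and limits, and leaving out arrays.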

Additional observations from a re-analysis of the deposited data

Results flagged for a closer look

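Among 16 groups of values tested for a sample far from the others (the 6 Col-0 arrays or the 7 rRBr arrays of a gene), 5 were flagged, where chance flags about 1 in 20 groups. The genes tested were AUR1, AUR2, AUR3, WYR, At4g39630, ATSMC2, BUB3.1 and KINESIN-12B, so that any flag had to fall on a mitotic gene. All 5 were the lowest Col-0 value of the gene and came from the same array, Col-0 at 10 das replicate 1, so that they are not independent. The values were 8.19 for AUR1, 7.45 for AUR2, 5.45 for WYR, 5.79 for At4g39630 and 6.42 for KINESIN-12B. The called replication genes PRL and ICU2, which were not tested for flags, were also lowest in Col-0 on this array, at 8.57 and 6.87. The gap to the next array took 0.695 of the Col-0 range for AUR1 and 0.80 for AUR2, above the critical value of 0.625 for 6 samples. The same array had a mean of EXPA7 and EXPA18 of 8.86, against 4.69 to 7.41 on the other 5 Col-0 arrays. It was also the lowest of all 13 arrays for the meristem markers At5g48940 and ACR4, at 8.79 and 4.74. The part of these tissue differences in the low values was not tested. The other arrays with high root hair transcripts, rRBr at 6 and 10 das replicate 1, gave no such flag.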

How the results depend on the processing

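The 14 comparisons of AUR1 and AUR2 were rerun under 21 to 26 other settings each (322 runs), and none was called. In 311 runs the direction was kept, but many of these left the group means unchanged and so could not turn it. It turned in 10, the value was 0 in 1 (AUR1 at 10 das without Col-0 10 das replicate 1), and the cause was not tested. AUR2 at 6 das was -0.16 without rRBr 6 das replicate 1 and turned to 0.02 without replicate 2. AUR1 at 10 against 4 das in Col-0 turned to 0.0436 with array weights, and to 0.055 both without the 3 arrays with high root hair transcripts and without Col-0 10 das replicate 1. With single arrays left out, the change of the line difference between 10 and 4 das ran from -0.24 to 0.058 for AUR1, above 0 without Col-0 4 das replicate 2, Col-0 10 das replicate 2 or 3 or rRBr 10 das replicate 2. For AUR2 it ran from -0.092 to 0.282, below 0 without Col-0 10 das replicate 1 or rRBr 10 das replicate 3. Over all days the differences then ran from 0.076 to 0.203 for AUR1 and from 0.034 to 0.204 for AUR2, lowest without Col-0 10 das replicate 1.

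With the replicate block the differences over all days were 0.163 for AUR1 and 0.157 for AUR2 (limma adjusted p = 0.558 and 0.682), and with the pairing and day together 0.167 and 0.161. The block changed no call of a member.

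The ratio of AUR1 to AUR2 changed by -0.023 to 0.042 between the lines with single arrays left out, the sign turning in 5 cases, and by -0.023 within the pairs of the replicate block. The ratios to AUR3, chosen after seeing the data, were 0.176 to 0.292 higher in rRBr against AUR1 and 0.175 to 0.283 against AUR2. The unadjusted exact permutation p against AUR1 fell under 0.05 without the Col-0 array at 6 das, Col-0 10 das replicate 2, or replicate 1 of rRBr at 4 or 10 das. That against AUR2 rose above 0.05 without either Col-0 4 das or rRBr 6 das array, Col-0 10 das replicate 1 or 3, or rRBr 10 das replicate 1 or 2. With arrays permuted within days the ratio of AUR3 to AUR1 (0.22) passed an unadjusted 0.05, and without the 3 arrays with high root hair transcripts that to AUR2 (0.21) no longer did, nor did it within pairs (0.195). With an adjusted p under 0.05 and no fold limit, 1 other mitotic gene, ATSMC2, was called over all days.

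The number of probe sets called was 95 over all days and ran from 23 without the 6 das arrays to 266 at an adjusted p under 0.05 with no fold limit. It was 65 at 10 das and ran from 0 with that day alone to 235 with array weights. It ran from 0 to 7 at 4 das, from 0 to 2 at 6 das, from 0 to 28 with age in Col-0, from 0 to 27 with age in rRBr and from 0 to 25 for the change of the line difference. The 1 Col-0 array at 6 das and the few arrays a day limit the precision, and each within-day interval of AUR1 and AUR2 reached past a fold change of 1.4.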
